A study of Mus musculus with 5 samples.

Results

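The 114 cells described here are the spinal cord cells of a single-cell RNA sequencing series of 1473 cells, chosen by the name of their columns in the deposited count table and by no measured value. Ependymal cells form the ciliated lining of the ventricles of the brain and of the central canal of the spinal cord, and their beating cilia move the cerebrospinal fluid. Foxj1 is the transcription factor that switches on the genes of motile cilia, and RFX factors act with it at many of those genes. In the mouse, the cells around the central canal come largely from ventral progenitors of the neural tube, and after an injury of the cord some of them divide and give rise to glia.

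The cells came from 3-month-old FoxJ1CreERT2 R26TdT mice, in which the Foxj1 promoter drives an inducible Cre recombinase and Cre switches on a red fluorescent reporter. The spinal cord, the walls of the lateral and the third ventricle, and the midbrain were dissected from animals of this line, 10 in all, of which 5 were female and 5 male, and cells were sorted into 96-well plates for Smart-seq2, a full-length cDNA method without molecular identifiers. All 4 groups carry the same alleles, no label ties a cell to an animal, and cells that do not use the Foxj1 promoter are outside the sort. The Nkx2-2 line of the series, Nkx2-2Cre R26TrapC, enters no comparison below. The spinal cord sample is named as such in its title, while its tissue field reads adult mouse brain. Each group held 1 sample, so differences between groups have no replicate check, and no test between groups was made.

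The spinal cord sample gave 114 cells from 144 wells (79.2%, exact 95% interval 71.6 to 85.5), with 94640544 reads in genes and a median of 759184 per cell (lowest 125984, highest 2317821). The brain samples for comparison were 240 lateral ventricle cells, 245 third-ventricle cells and 305 midbrain cells of ependymal-like clusters, with medians of 691446 to 734669 reads. At this like depth a spinal cord cell had a median of 3979.5 genes with a read, against 4841 to 5435.5 in the brain groups. Reads of mitochondrially encoded genes made up 9.17% of the spinal cord reads (per cell 3.32 to 46.2%) and 5.08 to 5.47% in the brain groups. The part of the mitochondrial share in the results below was not tested.

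Cells of the spinal cord sample stood apart from each other in one respect that bears on every value. In a clustering of all 1473 cells, 109 of the 114 lay in cluster 1, and 5 lay in clusters 5 and 6, which otherwise held mostly midbrain cells. A Hox read was found in 108 of the 109 cells, with a median of 555 Hox reads, whereas the 5 cells had 0 to 2 Hox reads each. Of the 5 cells, 3 had reads of Otx2, a forebrain and midbrain factor. The 5 cells held 6.38% of the reads of the sample. The counts of higher and lower genes are given with and without them, as are the values of those named genes whose reads lay mostly in them. Cluster 1 also held 2 third-ventricle cells, with 0 Hox reads, Foxj1 at 1.28 CPM in one and 0 in the other, and Stmn2 at 951 and 873 CPM. CPM is the read count scaled to the depth of the library, here of one cell and otherwise of the summed counts of a group.

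The sexes were unevenly represented. Reads of Y-linked genes were found in 76 of the 114 spinal cord cells and reads of Xist, the RNA of the inactive X chromosome, in 2, of which 1 had both. In the brain groups both kinds of cell were common, with 68 to 115 cells with Y-linked reads and 77 to 82 with Xist. The counts of higher and lower genes are therefore also given among cells with Y-linked reads only, and so are the lists of genes whose count or named members changed there.

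The label of the cells was set against its 5 markers. They were chosen with earlier results of these data known, so their levels describe the cells and are no independent check of the label. Foxj1 was read in 113 of 114 cells (99.1%, exact interval from 95.2%) and stood at 543 CPM, against 491, 460 and 596 CPM in the brain groups, always given in the order lateral ventricle, the third ventricle, midbrain. The Foxj1 promoter also marked the sorted cells. Ccdc153, a component of the motile cilium, was read in 112 cells and stood at 1985.9 CPM, against 3636.0 to 3823.1 CPM in the brain groups. Hoxa7, a factor of trunk position, was read in 85 cells (74.6%, 65.6 to 82.3) and stood at 218 CPM. In the brain it had 0 reads in the lateral ventricle and at most 0.408% of cells with a read. Nkx6-1, a homeodomain factor of the ventral neural tube, was read in 81 cells (71.1%, 61.8 to 79.2). Stmn2, a regulator of microtubules known from growing axons, was read in 77 cells (67.5%, 58.1 to 76.0), against 1.67 to 4.90% of brain cells. After each cell was thinned to 20000 reads the shares for Nkx6-1 and Stmn2 were 59.6 and 55.3%. All 5 markers were read in 45 cells, 4 in 43, 3 in 19 and 2 in 7, so each cell had at least 2 of them.

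**Figure D1:**
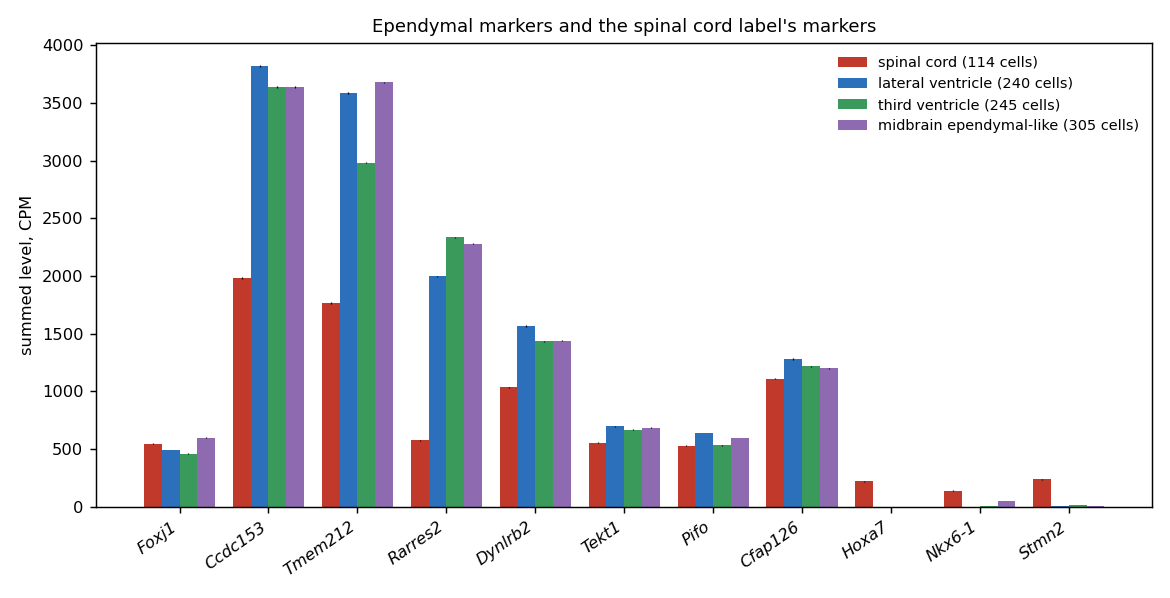
Summed level in CPM of 8 ependymal markers and of the 3 further markers of the spinal cord label, in the 4 regions. Bars give the level of 1 sample each and the thin lines the exact Poisson 95% interval, which covers counting error only. Foxj1, Tekt1, Pifo and Cfap126 stand at like levels in all regions, Rarres2 is at 576 CPM in spinal cord against 1997.0 to 2334.0 CPM in brain, and Hoxa7 and Stmn2 are near 0 in brain.

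The 8 ependymal markers summed to 8097 CPM, with a range over cells of 3242 to 16450 CPM, against 13260 to 14110 CPM in the brain groups. Tekt1 and Pifo, which belong to the ciliary axoneme and its base, stood at 555 and 526 CPM, against 667 to 694 and 532 to 638 CPM in brain. Tmem212, a membrane protein typical of ependymal cells, stood at 1768.3 CPM against 2984.3 to 3679.3 CPM. Rarres2, which encodes the secreted protein chemerin, stood at 576 CPM against 1997.0 to 2334.0 CPM, or 484 CPM without the 5 cells.

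Markers of other cell types were low in most lists. Of 5 markers of oligodendrocyte precursors, Cspg4 and Sox10 had 0 reads in spinal cord and the list summed to 0.602 CPM. Microglial markers summed to 0.676 CPM with C1qa at 0, and the 1 fibroblast marker in the table to 0.0740 CPM. Of 4 neuronal markers in the table, Rbfox3 had 0 reads, and the list summed to 14.3 CPM (0 to 449 CPM over cells), against 3.91 to 34.3 CPM in the brain groups. Snap25, a protein of synaptic release, made up 13.5 CPM of that sum and was read in 10 cells. Astrocyte markers summed to 1305 CPM against 1567 to 2271 CPM, most of it from Gja1, a gap junction protein of the connexin family, which stood at 774 CPM. Mural markers summed to 73.5 CPM against 209 to 728 CPM, choroid plexus markers to 480 CPM against 237 to 565 CPM, subcommissural organ markers to 9.08 CPM and the 2 Schwann cell markers in the table to 100.1 CPM, of which Pmp22 made up 99.8 CPM. Tanycyte markers summed to 77.4 CPM against 8.21 to 16.0 CPM. Rax, the defining tanycyte factor, had 0 reads, while Gpr50, an orphan receptor, stood at 49.7 CPM in 19 cells and Col23a1, a membrane collagen, at 27.7 CPM in 20 cells. The 5 oligodendrocyte markers summed to 222 CPM over the sample, against 68.2 to 89.0 CPM, and to 0 CPM in the median cell. Among the myelin genes, Mag stood at 1974 CPM and Mog at 497 CPM in cell 14, where Foxj1 was at 330 CPM and Hoxa7 at 247 CPM, while over the sample Mag stood at 11.7 CPM and Mog at 2.43 CPM. Endothelial markers were not analysed here.

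Taken over all genes, the spinal cord transcriptome was the outlier among the 4. Of 10766 genes that reached 10 CPM in any region, with Hox, mitochondrial and sex-linked genes left out, 20.5 to 21.8% differed at least 2-fold between spinal cord and a brain region, against 6.46 to 9.03% between 2 brain regions. Spearman's rho across these genes, which are not independent replicates, was 0.841 to 0.857 between spinal cord and each brain region and 0.934 to 0.957 between brain regions. The number of genes at 10 CPM or more was nearly the same, 9379 in spinal cord and 9417 to 9577 in brain. Fewer genes were found in most cells, however, with 2937 genes read in 50% of the spinal cord cells or more, against 3638 to 4332 in the brain groups.

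The most abundant transcripts per kilobase of exon were partly the same as in brain. Nnat, a small membrane protein of the endoplasmic reticulum, led with 6707.8 CPM per kilobase, followed by Dbi, which binds acyl-CoA, with 6610.5, and both ranked among the first 3 in each brain group. The metallothioneins Mt3, Mt1 and Mt2, which bind zinc and copper, followed with 5618.6, 4332.9 and 3800.6 CPM per kilobase. Ifitm3, an interferon-inducible membrane protein that restricts virus entry, ranked 6th with 3611.4 CPM per kilobase, and 34th, 90th and 29th in the brain groups. Clu, a secreted chaperone, stood at 3084.3 CPM per kilobase in spinal cord and 2136.6 to 3713.8 in brain. The secreted peptide precursor 1500015O10Rik, also known as Ecrg4, stood at 2786.7 CPM per kilobase, against 1734.3 and 139 on the lateral and the third ventricle and 875 in the midbrain. Itm2b, a membrane protein cleaved in the secretory pathway, stood at 2478.7 CPM per kilobase, against 1120.9 to 1279.4 in the brain groups. Tmem212 closed the first 10 with 2469.7 CPM per kilobase against 4168.0 to 5138.7 in brain.

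Beyond the Hox genes, 57 genes were higher in spinal cord than in every brain region (0.529% of the 10766 genes tested) and 105 were lower (0.975%). A gene counted as higher with at least 50 CPM and reads in 25% of spinal cord cells and a level at least 3-fold over the highest brain region, and as lower with at least 50 CPM and reads in 25% of cells in each brain region and a spinal cord level at most 1/3 of the lowest. The median fold was 4.95 for the higher genes and 6.13 for the lower genes. Without the 5 cells the counts were 68 and 118, which held all 57 of the higher and 104 of the lower genes. Among cells with Y-linked reads only, in every region, they were 61 and 102, of which 51 and 87 were among the main calls. Without the 2 third-ventricle cells of cluster 1 they were 58 and 106. With all midbrain cells in place of the ependymal-like ones they were 56 and 65, which held 51 of the 57 higher and 60 of the 105 lower genes, so that 45 of the lower calls were lost. At the threshold, Gadd45g (3.06-fold) and L3mbtl3 (3.06-fold) were the last genes inside and Pik3r3 (2.97-fold) and Suco (2.90-fold) the first outside on the higher side, and X2010300c02rik and Ephx4 (both 3.02-fold) stood against Rora (2.97-fold) and Acta2 (2.91-fold) on the lower side.

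**Figure D2:**
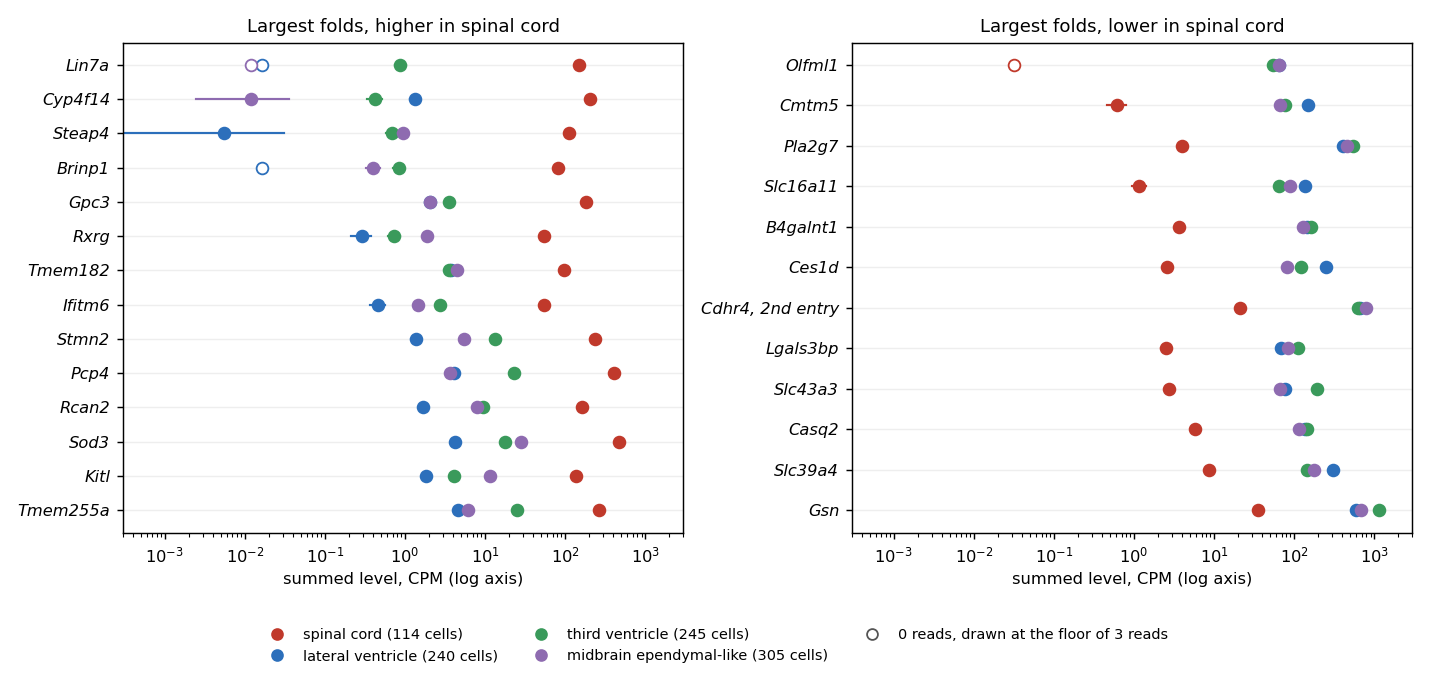
Summed level in CPM, on a log axis, of the 14 genes with the largest fold among those higher in spinal cord (left) and of the 12 with the largest fold among those lower (right). Points stand for 1 sample each, lines for the exact Poisson 95% interval, and open points for 0 reads drawn at the floor of 3 reads (the interval of Steap4 in the lateral ventricle runs past the left edge). The spinal cord lies to the right of every brain region by at least 10.3-fold on the left and to the left by at least 16.6-fold on the right.

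Among the higher genes, several were all but absent from the brain groups. Lin7a (chromosome 10, 107271686 to 107421474 on GRCm38), which helps to hold protein complexes at junctions and synapses, was read in 56 spinal cord cells and stood at 149 CPM (146 to 151). Its fold over the highest brain region was 169. Its only brain reads came from 1 of the 2 third-ventricle cells of cluster 1. Without those cells it was at least 8971-fold higher in spinal cord, a value set by the floor of 3 reads over the region. The 2 cells were singled out because their expression placed them with the spinal cord cells. Folds without them, here and below, are therefore a description and no support for the main folds. Cyp4f14, a cytochrome P450 of the fatty acid hydroxylase family, stood at 207 CPM in spinal cord, against 1.33, 0.417 and 0.0121 CPM in the brain groups, 155-fold over the highest. Only 46 of 114 cells had a read of it. Steap4, a metalloreductase, stood at 110 CPM against at most 0.948 CPM (116-fold), in 39 cells. Brinp1, a nervous system protein linked to cell cycle inhibition, stood at 80.4 CPM against at most 0.839 CPM (95.9-fold), in 36 cells, and 199-fold over the highest brain region without those 2 cells. Cyp4f14 was 73.2-fold and Steap4 59.7-fold higher among cells with Y-linked reads only. These genes were strong in a part of the cells and unread in the rest, and their medians over the 114 cells were 0 CPM.

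Other higher genes were read in most cells. Pcp4 (chromosome 16, 96467606 to 96525793), a small modulator of calmodulin, was read in 108 of 114 cells (94.7%, exact interval from 88.9%), with a median of 386 CPM per cell and a highest value of 2278.1 CPM. It stood at 411 CPM in spinal cord, against 4.04, 23.2 and 3.63 CPM in the brain groups, 17.7-fold over the highest, or 29.2-fold without the 2 third-ventricle cells. Sod3 (chromosome 5, 52363791 to 52371418), the extracellular superoxide dismutase, stood at 471 CPM against 4.19, 17.8 and 27.9 CPM (16.9-fold) and was read in 90 cells. Stmn2 (chromosome 3, 8509360 to 8561606) stood at 236 CPM (232 to 239) against 1.36, 13.2 and 5.46 CPM. Its fold over the highest brain region was 17.9, and 43.2 without the 2 third-ventricle cells. Gpc3, a heparan sulphate proteoglycan of the cell surface, stood at 185 CPM in 73 cells against at most 3.52 CPM (52.5-fold).

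The remaining named genes on this side were Rxrg, a retinoid X receptor (54.9 CPM in 29 cells, 29.1-fold), the membrane proteins Tmem182 (97.1 CPM in 46 cells, 21.9-fold) and Tmem255a (263 CPM in 74 cells, 10.3-fold), and Ifitm6, a relative of Ifitm3 (54.1 CPM in 39 cells, 19.7-fold). They also included Rcan2, an inhibitor of calcineurin (164 CPM in 66 cells, 17.2-fold), and Kitl, the ligand of the Kit receptor (136 CPM in 64 cells, 11.7-fold). In the midbrain cells of cluster 6, described below, Kitl stood at 116 CPM, near its spinal cord level. Ifitm3 and Ifitm6 are near relatives, so reads that fit both could be split between them. Ifitm6 stood 3-fold over the brain in every alternative that was run, but it no longer met all conditions of the call without the cell with the most reads of the gene, and neither did Dll1, Nr4a1 and Stk38l.

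Some genes with smaller folds ran through nearly every cell and were picked here for that after their values were seen. Dner, a Notch-related membrane protein, was read in 112 cells with a median of 836 CPM, against brain medians of 0 to 76.8 CPM, and stood at 943 CPM (6.34-fold). Ednrb, an endothelin receptor, was read in 103 cells and stood at 804 CPM against 71.5, 181 and 111 CPM (4.45-fold). Slc14a1, a urea transporter, was read in 111 cells and stood at 1058.5 CPM against 45.6, 266 and 196 CPM (3.97-fold). Ifitm3 was read in all 114 cells (exact interval from 96.8%), with a median of 2204.6 CPM per cell against 187 to 535 CPM. For the summed levels this was 2448.6 CPM against 618, 308 and 633 CPM (3.87-fold). C1qtnf3, a secreted C1q-like protein, stood at 802 CPM, with reads in 88.6% of cells (5.21-fold), and Clcn4, a chloride and proton exchanger, at 972 CPM in 112 cells (3.08-fold).

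Genes lower in spinal cord included some of the strongest ependymal transcripts of the brain. Apoe (chromosome 7, 19696109 to 19699188), a carrier of lipids, stood at 619 CPM (614 to 624) in spinal cord, against 13254, 11886 and 5409.8 CPM in the brain groups, 8.75-fold under the lowest. Without the 5 cells it stood at 500 CPM. The median cell held 306 CPM in spinal cord and 4097.9 to 11799 CPM in the brain groups. Cpe (chromosome 8, 64592542 to 64693054), a carboxypeptidase that trims peptide hormones, stood at 89.8 CPM against 2779.3, 1102.5 and 2255.2 CPM (12.3-fold). It was read in 26 of 114 cells, and without the 5 cells it stood at 9.30 CPM. Gsn, which severs actin filaments, stood at 35.8 CPM against 596 to 1162.5 CPM (16.6-fold), or 13.8 CPM without the 5 cells (43.0-fold).

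By size of the fold, Olfml1, a secreted olfactomedin-like protein, came first. It had 0 reads in spinal cord and 54.1 to 64.3 CPM in brain, at least 1707-fold lower against the floor of 3 reads over the sample, and 0 of 114 cells allows a share of up to 3.18% (exact interval). Cmtm5, a membrane protein with a MARVEL domain, was read in 2 cells and stood at 0.613 CPM against 66.5 to 150 CPM (108-fold). Pla2g7, the secreted enzyme that inactivates platelet-activating factor, stood at 3.99 CPM against 402, 550.5 and 462 CPM (100.6-fold). Lgals3bp, a secreted glycoprotein, stood at 2.50 CPM against 69.4 to 111 CPM (27.7-fold), and Casq2, a calcium store protein, at 5.82 CPM against 114 to 143 CPM (19.6-fold). B4galnt1, which makes complex gangliosides, stood at 3.60 CPM against 128 to 160 CPM (35.5-fold). Not all of these low levels were particular to spinal cord. In the midbrain cells of cluster 6, described below, Cmtm5 stood at 1.90 CPM and Lgals3bp at 0.136 CPM. B4galnt1 stood there at 16.4, Olfml1 at 23.3 and Pla2g7 at 34.0 CPM, while Casq2 stood at 107 and Gsn at 407 CPM.

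Solute carriers and an esterase made up most of the other named genes. Slc16a11, of the monocarboxylate transporter family, stood at 1.16 CPM against 64.0 to 136 CPM (55.0-fold), Slc43a3 at 2.75 CPM against 66.8 to 195 CPM (24.3-fold), and Slc39a4, a zinc importer, at 8.58 CPM against 143 to 306 CPM (16.7-fold). Without the 5 cells Slc16a11 stood at 0.361 CPM (177-fold) and Slc39a4 at 0.790 CPM (182-fold), so that most of the spinal cord reads of both genes lay in the 5 cells. The folds among cells with Y-linked reads only were 24.9 for Slc16a11, 15.45 for Slc43a3 and 27.15 for Slc39a4. In the midbrain cells of cluster 6, described below, Slc16a11 and Slc43a3 each stood at 0.0905 CPM and Slc39a4 at 208 CPM. Ces1d, a carboxylesterase, stood at 2.59 CPM against 81.0 to 250 CPM (31.3-fold), of which 94.3% of the reads lay in the 5 cells. It stood at 0.158 CPM without them (512-fold) and was 157-fold lower among cells with Y-linked reads only. The second table entry of Cdhr4, a cadherin-related gene that could not be placed in the annotation, stood at 21.2 CPM against 620 to 781 CPM (29.2-fold), and 0.0452 CPM without the 5 cells. Its identity is therefore uncertain. In the midbrain cells of cluster 6, Ces1d stood at 4.75 CPM and this entry of Cdhr4 at 30.7 CPM, both near their spinal cord levels.

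Across the 105 genes, the 5 cells held 26.3% of the spinal cord reads, and in 29 of the genes they held more than 50%. Of the reads of the 57 higher genes they held 1.497%. The 109 cells had reads of 5 to 33 of the 105 lower genes (median 15), and the 5 cells of 30 to 67. Summed over the lower genes, the 109 cells held a median of 2903.5 CPM per cell and the 5 cells 16222 CPM, while the brain medians were 29055 to 37929 CPM. Summed over the higher genes, the medians were 16121 CPM in the 109 cells, 3405.1 CPM in the 5 cells and 1915.5 to 2474 CPM in brain. These sums rest on the genes chosen from the same cells and are a description.

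**Figure D3:**
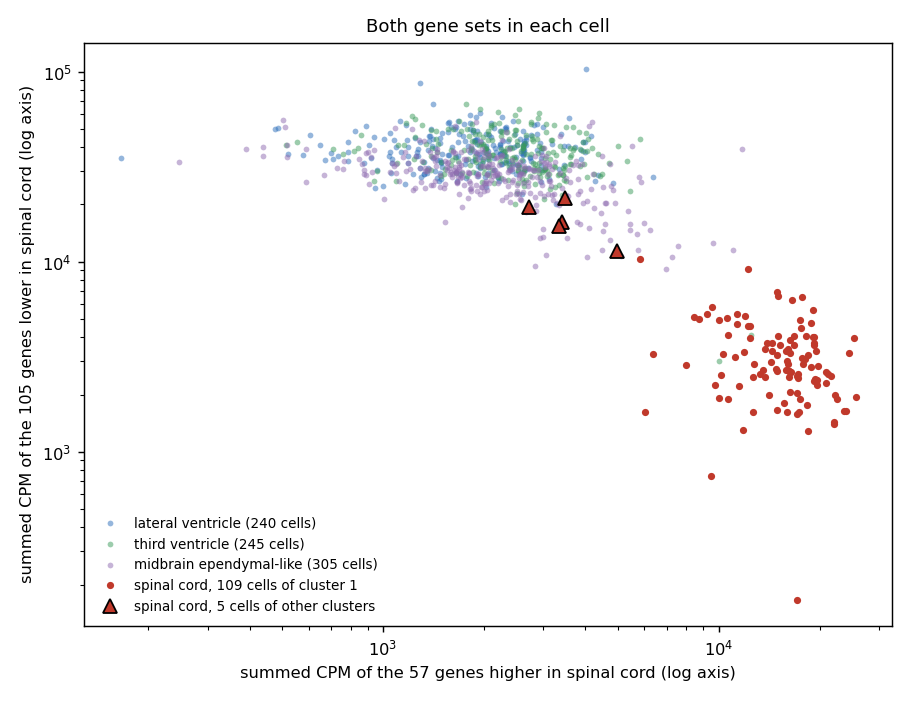
Each point is a cell, placed by the summed CPM of the 57 genes higher in spinal cord (x) and of the 105 genes lower in spinal cord (y), both on log axes. The 109 spinal cord cells of cluster 1 lie at the lower right (medians 16121 and 2903.5 CPM), the 5 others, drawn as triangles, lie at the edge of the midbrain cells (medians 3405.1 and 16222 CPM), and 2 third-ventricle cells lie among the spinal cord cells.

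The brain groups were not equally far from spinal cord for these genes. The third ventricle was the highest brain region for 31 of the 57 higher genes (54.4%), against 36.9% of all genes tested, the midbrain for 15 and the lateral ventricle for 11. These counts include the 2 third-ventricle cells of cluster 1, from which the third-ventricle reads of Lin7a and Brinp1 came. They also rest on genes chosen from the same values. Over all genes tested the third ventricle was not the nearest, with a rho to spinal cord of 0.843, 0.841 and 0.857 in the brain groups. For the 105 lower genes the midbrain was the lowest brain region most often, for 43 (40.95%, against 31.4% of all genes tested), followed by the third ventricle for 32 and the lateral ventricle for 30. Within the midbrain, cluster 6, a set of 36 cells led by Ucma, Cnpy1, Pdyn, Slc14a1 and Ednrb, was picked after its values were seen. In it 27 of the 57 higher genes (47.4%) were at least 2-fold over the rest of the midbrain cells, against 10.5% of all genes, and 58 of the 105 lower genes (55.2%) were at least 2-fold under them, against 16.6%. Of the 5 spinal cord cells outside cluster 1, 2 lay in this cluster.

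The spinal cord cells fall into 75 cells with numbers up to 96 and 39 with higher numbers. Of the 57 higher genes, 46 passed 3-fold over the highest brain region in both sets, 7 only in the first and 4 only in the second. Of the 105 lower genes, 82 passed in both, 18 only in the first and 5 only in the second. The genes were called on the summed reads of both sets, against the same brain levels, so none could fail in both. The sets are also parts of the same sample and not replicates. These counts therefore describe the split and are no check of the calls. Examples of a wide gap are Snhg11, a noncoding RNA, with 61.5 and 407 CPM, Lin7a with 102 and 230 CPM, and Cyp4f14 with 286 and 69.4 CPM. The labels do not say what these numbers stand for beyond the order of wells.

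Gene lists were read at 2-fold against all 3 brain regions, which 4.4% of all genes tested passed as higher and 7.94% as lower. Among all genes tested the median log2 ratio of spinal cord to the mean of the brain regions was close to 0 (-0.00). A list's share near these values says nothing particular about it.

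**Figure D4:**
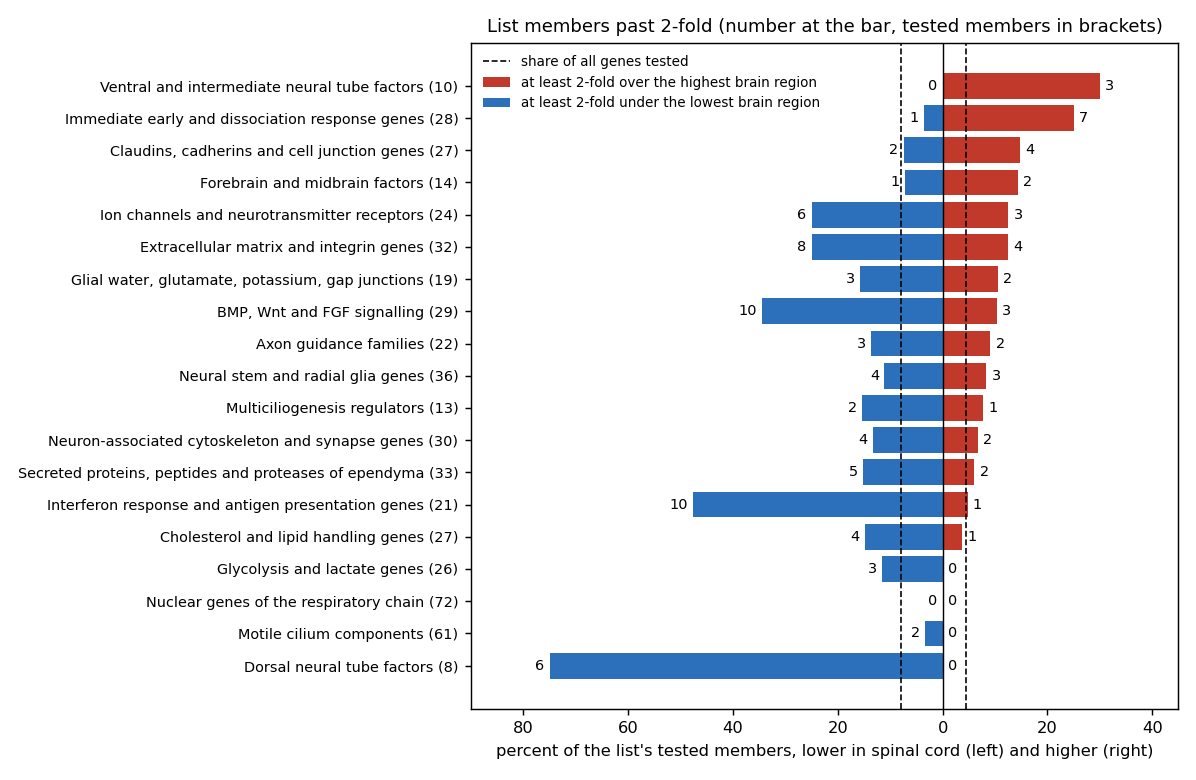
Percent of each list's tested members that were at least 2-fold over the highest brain region (red, right) or at least 2-fold under the lowest (blue, left), with their number at the bar and the number tested in brackets. Dashed lines mark the shares among all genes tested, 4.4 and 7.94%. The dorsal factors (6 of 8 lower) and the interferon and antigen presentation genes (10 of 21 lower) reach furthest to the left, and the ventral factors (3 of 10) and early response genes (7 of 28) furthest to the right.

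Positional factors outside the Hox clusters were read by their place along the back-to-belly axis of the neural tube. Of 10 ventral and intermediate neural tube factors tested, 3 were higher and 0 lower, with a median log2 ratio of 0.83. Nkx6-1 (chromosome 5, 101658139 to 101664996) stood at 138 CPM against 0.00553, 3.81 and 48.5 CPM in the 3 brain groups (2.85-fold). Pax6, a paired-box factor of neural progenitors, stood at 132 CPM against 28.4, 37.0 and 19.1 CPM (3.56-fold). Gas1, a co-receptor for Sonic hedgehog, stood at 24.8 CPM against 4.73 to 8.85 CPM, in 22 cells. Among cells with Y-linked reads only, Pax6 was not past 2-fold and Sp8 was. Pax6 was likewise not past 2-fold with all midbrain cells, and Gli3 was then lower. Nkx2-2, chosen here after its values were seen, had 0 reads in spinal cord. The only reads of Foxa1, a floor plate factor chosen likewise, lay in 2 of the 5 cells.

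Dorsal factors ran the other way. Of 8 tested, 0 were higher and 6 lower, with a median log2 ratio of -7.39. Msx1, a homeodomain factor of the roof plate, stood at 33.3 CPM against 218 to 275 CPM and was read in 23 of 114 cells. Zic1 and Zic5, zinc finger factors of the dorsal neural tube, stood at 0.0423 and 0 CPM, against 4.07 to 18.9 and 8.91 to 18.4 CPM. Zic4 stood at 1.09 CPM against 15.5 to 173 CPM. Bmp6, a signal of the roof plate, had a single cell with a read against 28.1 to 34.3 CPM in brain. All 6 calls were kept without the 5 cells and among cells with Y-linked reads only.

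Of 14 forebrain and midbrain factors tested, Meis1 (93.5 CPM against 19.8 to 34.4 CPM) and Pbx3 (22.4 CPM against at most 3.09 CPM), which encode partners of Hox proteins, were higher. Six3, a forebrain factor, had 0 reads against 0.444 to 42.4 CPM and was the 1 member lower. Otx2 stood at 11.3 CPM in all 114 cells and 0.0339 CPM without the 5 cells, and Otx1 at 3.14 and 0.0226 CPM. Without the 5 cells Otx1, Otx2 and Irx2 were also lower, which made 4. Meis1 was past 2-fold neither among cells with Y-linked reads only nor with all midbrain cells in the comparison, while Pbx3 was in both. Among cells with Y-linked reads only, Irx2 joined Six3 on the lower side.

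Within the spinal cord, the positional factors did not sort the cells into clear classes. Of the 109 cells of cluster 1, 64 had reads of both Nkx6-1 and Pax6, 15 of Nkx6-1 only, 18 of Pax6 only and 12 of neither. Over 55 pairs of positional factors, Spearman's rho across the 109 cells ran from -0.231 to 0.210. For the 91 pairs of the 14 genes with the largest folds it ran from -0.195 to 0.353. The cells share their depth and library, and in sparse counts such weak values are no finding.

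Motile cilium genes were nearly all within 2-fold of the brain groups. Of 61 cilium components tested, 0 were higher and 2 lower, with a median log2 ratio of -0.14. Their reads made up 2.68% of the spinal cord reads (per cell 1.66 to 4.16%) and 3.07 to 3.50% in brain. The 2 members past 2-fold were Dnah3, an axonemal dynein, with 69.1 CPM against 175 to 199 CPM, and Ak8, an adenylate kinase of cilia, with 183 CPM against 385 to 415 CPM. The 2 lower members were Dnah3 and Mdh1b among cells with Y-linked reads only, and there were 0 with all midbrain cells. Of 13 regulators of multiciliation tested, Ccno, a cyclin-like factor needed to multiply centrioles, was higher with 51.9 CPM against 6.22 to 16.4 CPM. Deup1 and Ccdc78, proteins of the structure on which centrioles form, were lower, with 25.9 CPM against 68.7 to 78.0 CPM and 24.2 CPM against 248.9 to 287.6 CPM. Ccdc78 stood at 7.28 CPM without the 5 cells. Deup1 was not called lower among cells with Y-linked reads only or with all midbrain cells, whereas Ccno and Ccdc78 kept their calls in both. Among cells with Y-linked reads only, 14 regulators were tested and Plk4 joined Ccno on the higher side. Foxj1, Rfx1, Rfx2 and Rfx3 were past 2-fold in neither direction, with Rfx2 at 253 CPM against 203 to 236 CPM and Rfx3 at 139 CPM against 116 to 127 CPM. Sntn, which encodes sentan, a protein of the ciliary tip, was among the 105 lower genes, with 71.3 CPM against 522 to 667 CPM (7.32-fold) and reads in 27 cells.

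Cilium genes often carry the half-site of RFX factors, GTTGCCA, close to their start. In the 250 bases upstream of the start (RefSeq, GRCm38.p6, both strands, no overlap of motifs) it was present in 7 of 49 cilium genes that matched the table by symbol (14.3%), in 4 of 73 matched lower genes (5.48%), in 0 of 47 matched higher genes and in 4.52% of all genes tested. It was found in 3.66% of all windows of that length. The homeodomain core TAATTA was present in 2 of the 47 higher genes (4.26%), 2 of the 73 lower genes (2.74%) and 2.85% of genes tested. The 100 bases before the start are shown for 2 lower genes, Sntn and Ccdc78, and for 2 cilium genes within 2-fold, Pifo and Tekt1, because all 4 hold the half-site while their spinal cord levels differ, with the half-site in capitals on either strand:
Sntn, chr14:13670776-13670875, plus strand: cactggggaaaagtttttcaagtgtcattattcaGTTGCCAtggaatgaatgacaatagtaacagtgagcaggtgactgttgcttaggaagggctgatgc
Ccdc78, chr17:25786480-25786579, plus strand: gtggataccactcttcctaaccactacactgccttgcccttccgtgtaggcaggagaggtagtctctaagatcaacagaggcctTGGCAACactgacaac
Pifo, chr3:106001498-106001597, minus strand: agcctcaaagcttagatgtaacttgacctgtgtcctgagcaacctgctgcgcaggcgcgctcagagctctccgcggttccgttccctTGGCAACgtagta
Tekt1, chr11:72361883-72361982, minus strand: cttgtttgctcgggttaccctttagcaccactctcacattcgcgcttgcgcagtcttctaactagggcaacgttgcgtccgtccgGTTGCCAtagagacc
A match describes the letters in the window and is not a measured binding site.

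Energy genes were nearly all within 2-fold. Of 72 nuclear genes of the respiratory chain tested, 0 were past 2-fold in either direction, with log2 ratios to the brain mean from -0.74 to 0.35 and a median of 0.04, beside the higher share of mitochondrially encoded reads given above. Of 26 glycolysis and lactate genes, 0 were higher and 3 lower. These were Pfkp, a phosphofructokinase, with 13.6 CPM against 93.7 to 123 CPM, Slc16a1, a lactate transporter, with 55.2 CPM against 142 to 176 CPM, and Pfkfb3, a regulator of glycolysis, with 0.137 CPM against 1.75 to 24.5 CPM.

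Of 30 neuron-associated genes tested, 16 were within 2-fold of the brain mean. Against all 3 regions 2 were higher (Stmn2 and Lin7a) and 4 lower, with a median log2 ratio of 0.36. The lower members were Stmn3, a relative of Stmn2, with 0 CPM against 0.857 to 12.7 CPM, Nrxn3, a presynaptic adhesion protein and outside the naming rule, with 5.55 CPM against 12.4 to 41.4 CPM, Sncg, gamma-synuclein, with 16.7 CPM against 123 to 462 CPM, and Scg3, a granin of secretory vesicles, with 74.3 CPM against 300.4 to 337 CPM. Without the 2 third-ventricle cells, Stmn3 was no longer among the genes tested, and Snap25 and Syp joined the higher members. Among cells with Y-linked reads only, 5 were higher (Stmn2, Crmp1, Snap25, Lin7a and Marcks) and 3 lower (Ncam2, Sncg and Scg3), with a median of 0.59. With all midbrain cells Marcks joined the higher members, and Lin7b took the place of Nrxn3 among the 4 lower ones. The neuronal marker list stood at 14.3 CPM in spinal cord, as given above, with Rbfox3 at 0.

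Of 36 genes of neural stem cells and radial glia tested, 26 were within 2-fold of the brain mean. Against all 3 regions 3 were higher and 4 lower. Sox2, a factor that keeps progenitors, stood at 102 CPM against 37.9 to 47.7 CPM, and Dll1, a Notch ligand, at 53.9 CPM against 6.30 to 10.9 CPM. Top2a, a topoisomerase of dividing cells, stood at 12.3 CPM in 22 cells against at most 0.855 CPM. On the lower side, Nes, the filament nestin, was read in 1 of 114 cells, which was one of the 5, and stood at 0.581 CPM against 26.3 to 64.0 CPM. Hey1, a Notch target, stood at 34.8 CPM against 142 to 166 CPM. The BMP targets Id1 and Id3, the latter named after its values were seen, stood at 2.29 CPM against 12.6 to 44.1 CPM and at 7.29 CPM against 17.7 to 74.7 CPM. Sox2 and Id1 lost their calls among cells with Y-linked reads only, which left 2 higher and 3 lower.

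Signalling genes of the BMP, Wnt and FGF pathways were more often lower. Of 29 tested, 3 were higher and 10 lower (34.5%), with a median log2 ratio of -0.91. Among the ligands, Bmp6 was lower, as was Fgf18, which had 0 reads against 2.90 to 14.3 CPM. Wnt5a (4.69 CPM against 19.1 to 47.6 CPM) and Wnt4 (15.9 CPM against 42.9 to 55.2 CPM), named after their values were seen, were also lower. The Wnt enhancer Rspo3 also had 0 reads, against 2.09 to 14.5 CPM. The Wnt antagonist Sfrp1 stood at 5.42 CPM against 34.9 to 53.3 CPM, and Smoc1, a secreted BMP antagonist, at 3.12 CPM against 14.03 to 34.1 CPM. All 3 higher members are named, a choice made after their values were seen. Nog, the BMP antagonist noggin, stood at 11.9 CPM in 12 cells, Lgr4, a receptor for R-spondins, at 101 CPM in 75 cells and Fgf9 at 11.2 CPM in 10 cells. Among cells with Y-linked reads only, Fgf9 was the 1 higher member and 8 were lower. With all midbrain cells Nog was the 1 higher member and 10 were lower, without Wnt4.

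Axon guidance genes held 2 higher and 3 lower members of 22 tested. The receptors Robo1 and Robo2 stood at 33.6 CPM against 2.37 to 8.82 CPM and at 46.2 CPM against 8.93 to 12.5 CPM. Their ligand Slit2 stood at 0.581 CPM against 14.9 to 45.5 CPM, and at 0.0226 CPM without the 5 cells. Plxna4, a semaphorin receptor, and Sema5b, a semaphorin, were the other lower members, with 0.549 and 1.78 CPM. Ephb3 was the fourth lower member among cells with Y-linked reads only, and Efnb2 with all midbrain cells.

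Of 27 junction genes, 4 were higher and 2 lower. N-cadherin (Cdh2) stood at 131 CPM against 48.1 to 52.0 CPM, Cldn10, a claudin, at 18.4 CPM in 10 cells against at most 2.29 CPM, and Vangl2, a planar polarity protein, at 50.5 CPM against 11.9 to 21.1 CPM. F11r, a junctional adhesion molecule, stood at 19.9 CPM against 68.6 to 94.8 CPM. The junction list had 6 higher and 2 lower members among cells with Y-linked reads only. It had 3 and 4 with all midbrain cells, where Cdh2 and Vangl2 lost their calls. Of 32 matrix and integrin genes, 4 were higher and 8 lower. Col18a1, a basement membrane collagen, stood at 31.6 CPM in 15 cells against 1.27 to 5.96 CPM, and fibronectin (Fn1) at 13.4 CPM in 11 cells. Lamb1, a laminin chain, had 0 reads against 11.6 to 71.7 CPM, Col9a3, a collagen, stood at 2.43 CPM (1.06 CPM without the 5 cells) against 33.9 to 38.6 CPM, and Tnr, the matrix protein tenascin R, at 0.211 CPM (0.0226 CPM without them) against 15.3 to 33.8 CPM. Among cells with Y-linked reads only, the matrix list had 5 higher and 4 lower members. It had 2 and 6 with all midbrain cells, without Col18a1.

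Of 21 interferon and antigen presentation genes tested, 1 was higher and 10 were lower (47.6%), with a median log2 ratio of -0.98. The higher member was Ifitm3. Ifi27, an interferon-induced mitochondrial protein, stood at 43.3 CPM against 253 to 306 CPM, or 21.9 CPM without the 5 cells. Ifit1 and Ifit3, sensors of viral RNA and their partners, stood at 0.0528 CPM against 9.45 to 16.2 CPM and at 1.43 CPM (0.0339 CPM without the 5 cells) against 16.2 to 27.6 CPM. Ly6e, a surface protein, had 0 reads against 6.08 to 10.6 CPM. Of the 10 lower members, 6 were lower among cells with Y-linked reads only, where Psmb10 joined Ifitm3 on the higher side. Ifi27 and Ifit3 were among these 6, while Ifit1 and Ly6e were not. Without the 2 third-ventricle cells of cluster 1, 20 genes were tested and 9 were lower, with Ly6e no longer among them. The list of microglial markers, whose cells use many of these genes, summed to 0.676 CPM in spinal cord and 3.18 to 54.9 CPM in brain, and its part in the result was not tested.

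Genes of glial water and ion handling held 2 higher and 3 lower members of 19 tested. Aqp4, the water channel of glia, stood at 197 CPM against 434 to 584 CPM. Gjb6, a connexin, had 0 reads against 0.868 to 12.6 CPM. Gjc1, another connexin, stood at 15.9 CPM in 15 cells and Slc12a2, a chloride importer, at 22.1 CPM in 17 cells, both past 2-fold on the higher side. Slc12a2 lost its call among cells with Y-linked reads only, as did Gjb6, and with all midbrain cells, as did Aqp4. Of 24 ion channels and receptors, 3 were higher and 6 lower. Gabrg1, a GABA receptor subunit, stood at 19.1 CPM in 12 cells against at most 4.22 CPM. Pkd2l1, a channel of the neurons that contact the cerebrospinal fluid, stood at 10.7 CPM but was read in only 4 cells, with a highest value of 1613.9 CPM. The 2 markers of those neurons in the table summed to 31.5 CPM, of which Gata3 made up 20.8 CPM. Chrna4, an acetylcholine receptor subunit, Grik3, a kainate receptor subunit, and Kcna1, a potassium channel, were lower, with 0.0106, 0 and 3.79 CPM. Channels again held 3 higher and 6 lower members among cells with Y-linked reads only, but Pkd2l1 and Chrna4 were not among them.

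Lipid and secretory genes held more lower than higher members, as did all genes tested (7.94% lower and 4.4% higher). The shares were 14.8% lower and 3.70% higher for the lipid genes and 15.2 and 6.06% for the secreted proteins and proteases. With so few members past 2-fold, nothing particular to either list is read from this. Of 27 lipid genes tested, Lrp2, the endocytic receptor megalin, was the 1 higher member with 208 CPM against 45.1 to 73.7 CPM, and 4 were lower. Beside Apoe the lower members included Acsl6, which activates fatty acids, with 29.2 CPM against 68.7 to 126 CPM, and Fabp5, a fatty acid carrier, with 10.2 CPM against 39.9 to 83.6 CPM, or 6.13 CPM without the 5 cells. Lower lipid genes numbered 5 among cells with Y-linked reads only, and with all midbrain cells Acsl6 lost its call. Of 33 secreted proteins and proteases, 2 were higher and 5 lower, and 3 and 5 among cells with Y-linked reads only. Pcsk2, a convertase that cleaves prohormones, stood at 601 CPM in 113 cells against 53.8 to 188 CPM (3.198-fold), in contrast to Cpe, which acts after it. Bhmt, a methyltransferase, stood at 21.02 CPM in 35 cells against at most 1.46 CPM. S100a6, a calcium-binding protein, stood at 21.7 CPM against 111 to 615 CPM, and Fam107a, a stress-linked actin regulator, at 2.75 CPM against 39.5 to 61.3 CPM.

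Early response genes, which are transcribed within minutes of a stimulus or of tissue dissociation, held 7 higher members and 1 lower of 28 tested, with a median log2 ratio of 0.88. With all midbrain cells in place of the ependymal-like ones, 3 of 30 were higher (Socs3, Ccn1 and Gadd45g) and 3 lower (Egr2, Nr4a2 and Myc), with a median of -0.07, and Nr4a1 and Klf4 lost their calls. The same list had 8 higher members and 1 lower among cells with Y-linked reads only. Socs3, an inhibitor of cytokine signalling, stood at 398 CPM against 67.3 to 111 CPM, Nr4a1, a nuclear receptor, at 188 CPM against 38.8 to 58.8 CPM, Gadd45g at 316 CPM against 61.1 to 103 CPM, and Klf4 at 19.1 CPM against 3.93 to 6.72 CPM. Myc, a growth factor target, was the lower member, with reads in 1 cell, which was one of the 5. Fos itself stood at 3485.1 CPM against 787.8, 1498.2 and 2299.6 CPM and was not past 2-fold.

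Early response genes were also 6 of the 12 most variable genes among spinal cord cells. Among genes with a mean of at least 50 CPM and reads in 10 cells, the 12 with the largest spread for their mean included Mir6236, Ccn1, Fos, Egr1, Dusp1, Junb, Socs3, Npy, Gfap, Tubb5 and D730003i15rik. Fos was under 100 CPM in 65 cells, between 100 and 1000 CPM in 10 and at 1000 CPM or more in 39 (34.2%), up to 33657 CPM in cell 116. In the brain groups the share at 1000 CPM or more was 12.5% for the lateral ventricle, 23.7% for the third and 32.5% for the midbrain. In the 2 sets of cell numbers it was 30.7 and 41.0% of spinal cord cells. Few cells lay between the low and the high values.

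Egr1, Junb and Dusp1, which encode transcription factors and a MAP kinase phosphatase, followed Fos from cell to cell, with Spearman's rho of 0.828, 0.795 and 0.688 over 109 cells. Fos had a rho of 0.024 with reads per cell, 0.282 with genes per cell and -0.0721 with the mitochondrial share. With Stmn2, Pcp4 and Sod3 it was 0.0602, 0.0814 and -0.0949. All cells came from 1 sample, so these values describe that sample.

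**Figure D5:**
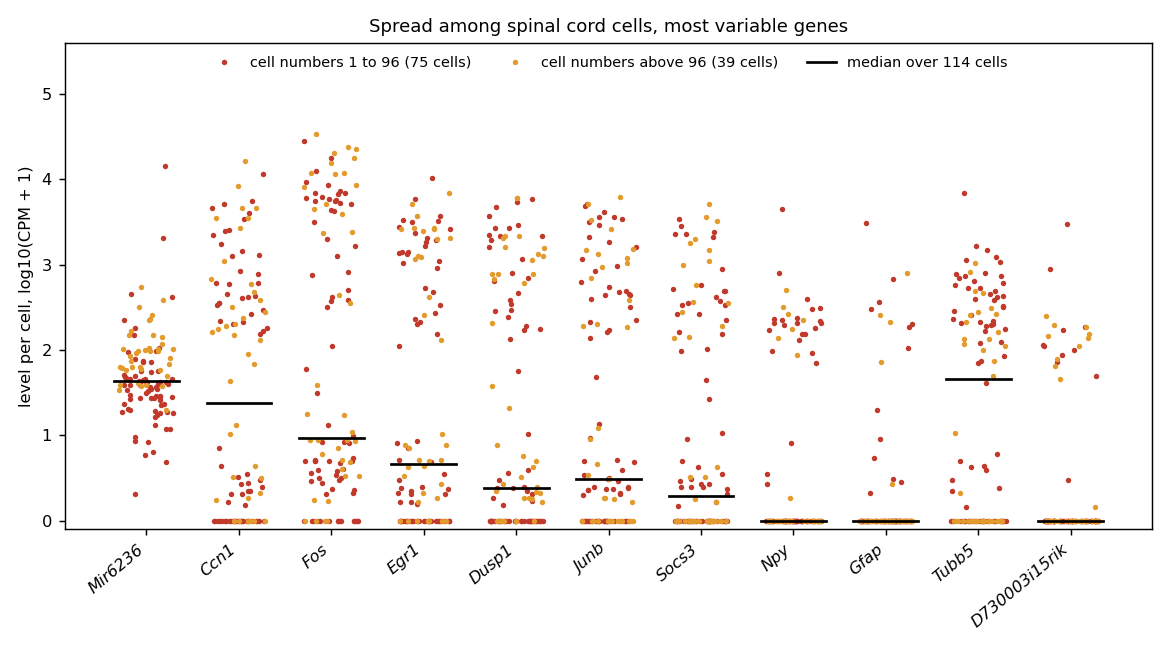
Level per cell, as log10(CPM + 1), of 11 of the 12 most variable genes in the 114 spinal cord cells. Points are cells, coloured by cell number up to 96 (75 cells) or above (39 cells), and black lines are medians. Fos, Egr1, Dusp1, Junb and Socs3 fall into a low and a high band in both sets of numbers, while Mir6236 has 1 cell far above the rest.

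Among the other variable genes, Gfap and Mir6236 had most of their reads in a single cell. Cell 84, the deepest with 2317821 reads, held 7152 of the 9088 reads of Gfap, a glial filament, at 3086 CPM. Cell 85 held 12414 of the 30793 reads of Tubb5, a tubulin, which stood at 100 CPM or more in 50 other cells. Mir6236, which the annotation places at chromosome 9, 110281287 to 110281409, was read in all cells and held 10686 of its 18618 reads in cell 3. Npy, the neuropeptide Y precursor, reached 4445.0 CPM in cell 88, the shallowest with 125984 reads, and was read in 28.1% of cells. When the cell with the most reads of each gene was left out, 6 of the 12 genes were still among the first 12 and 8 among the first 50. Ccn1, a matrix-associated early gene, ranged up to 16392 CPM and stood at 597 CPM in the first set of cell numbers and 1435.2 CPM in the second.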

How the data were processed

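Expression was measured by Smart-seq2 in single sorted cells of adult mice. The authors deposited a table of raw read counts per gene and cell and a table of log2 values, and the submitters' processing notes name STAR 2.3.1o, Seurat 3 and the mm10 build, with no role given here. The deposited log2 values equalled, within 0.01 for 100% of values, log2(x + 1), where x is the count over its cell's size factor. They served only as an alternative scaling. Cells had 125984 to 2317821 reads in the spinal cord sample. Column names of the tables were tied to samples by their region names. The names Forebrain and Tanycytes were read as the lateral and the third ventricle samples, which the labels do not state outright.

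Counts were summed over the cells of each region and scaled to CPM. Exact Poisson 95% intervals were given for levels and exact binomial (Clopper-Pearson) intervals for shares of cells. Both cover counting error only, since PCR copies of 1 molecule could not be told apart. A gene with 0 reads in a region was set to a floor of 3 reads over that region in folds. With 1 sample per group no p-value was computed, and the calls are size rules. All 1473 cells were clustered (counts per 10000, 2000 variable genes, 30 components, 15 neighbours, Leiden resolution 1, 15 clusters), and midbrain cells counted as ependymal-like where their cluster was named so from its markers, which left 305 of 547. Wells were sorted to hold 1 cell, and no doublet caller was run. Cells were thinned to 20000 reads to compare shares. Of 16347 gene names, 15995 matched GENCODE M21, whose exon lengths gave levels per kilobase. The call rule was run on counts simulated from the lateral ventricle means, with known folds put into some well-expressed genes. The simulation held no other differences between regions and no outlying cells. It therefore checks how the rule was coded and not the calls made here.

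The text names the 14 higher and 12 lower genes with the largest folds, the 10 most abundant per kilobase, the 12 most variable, up to 5 members per list past 2-fold, and all cell type markers. Others were named after their values were seen. Some genes that meet the rule are not reported here. The cells, gene lists and markers were chosen with earlier results of these data known. Python 3.11.15, numpy 2.4.6, pandas 2.3.3, scipy 1.17.1, scanpy 1.11.5, igraph 0.11.9 and matplotlib 3.10.9 were used. Promoter sequences came from RefSeq, GRCm38.p6.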

Additional observations from a re-analysis of the deposited data

How the results depend on the processing

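No paired analysis was possible because each group held 1 sample. Of the alternatives, only the thresholds, the midbrain set, the read depth and, for the most variable genes, leaving out single cells moved a count or a share beyond its limit. A minimum of 2-fold gave 142 higher and 193 lower genes, and 5-fold gave 28 and 63. Reads in 50% of cells gave 33 and 58, and a minimum of 10 CPM gave 163 lower genes. With all midbrain cells in place of the ependymal-like ones, 65 genes were lower. Thinning cells to 20000 reads gave shares of 94.74% for Foxj1, 59.65% for Nkx6-1 and 55.26% for Stmn2. Of the 12 most variable genes, 6 were kept without the cell with the most reads of each. The other settings gave 52 to 80 higher and 100 to 137 lower genes, the extremes being thinned cells and the comparison without the third ventricle. All 26 genes with the largest folds were at least 3-fold apart in the same direction in every setting run. They were picked for their large folds and every setting drew on the same cells, so this is no independent support. The medians of the lists moved past their limit in 84 values. The 652 values that did not move include the folds of the 26 genes in each of 16 settings, so they are not list medians alone. The medians of the dorsal factors moved in 11 of 16 settings. Those of the cilium components moved in 10, and those of the forebrain and midbrain factors and of the secreted proteins in 9 each. The median log2 ratio crossed 0 over the settings for the early response (-0.07 to 1.36), axon guidance (-0.29 to 0.32), forebrain and midbrain (-2.54 to 0.05), glycolysis (-0.24 to 0.15), glial (-0.38 to 0.02), multiciliogenesis (-0.20 to 0.19) and respiratory chain (-0.05 to 0.09) lists, so no direction is read from these medians. Leaving out the 5 cells, using cells with Y-linked reads only and leaving out the 2 third-ventricle cells were alternatives chosen after seeing the data. A comparison among cells with Xist reads was not run, because 1 spinal cord cell had Xist reads without Y-linked ones. Depth limits the shares of cells with a read, and no setting replaces the missing replicates.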
